A study of Mus musculus with 4 samples.

Results

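The mammalian circadian clock genes Arntl, Clock, Per1, Per2, Per3, Cry1, Nr1d1, Nr1d2, Dbp and Tef were followed through single-cell RNA libraries of mouse hindlimb muscle. These 10 genes were taken by symbol from the 32285 genes that the count matrices list, and each symbol stood for 1 row. Muscle-resident Schwann cells had been compared between healthy and denervating muscle in the study, and the libraries used here carry no label of a nerve injury. Every mouse carried the S100GFPtg reporter, in which the promoter of S100B drives GFP and so marks Schwann cells, although the GFP+ libraries also held many cells with markers of other classes. The mice were male and 2 months old, and were either wild type for Sod1 (WT) or Sod1-/- (Sod1KO), which the study used as a model of denervation without surgery. Tibialis anterior (TA) and gastrocnemius (GTN) muscles of 4 mice per genotype were pooled and digested, and live cells, which exclude propidium iodide (PI), were sorted into GFP+ and GFP- fractions. Each fraction of each pool gave 1 library, so that every group had 1 library and no test across animals could be made.

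Almost every cell keeps its own clock. Arntl (also called Bmal1) and Clock encode the transcription factors that pair and bind E-box sequences, from which they drive the Per and Cry genes, the nuclear receptors Nr1d1 and Nr1d2 (Rev-erb alpha and beta), and the output factors Dbp and Tef. PER and CRY proteins return to the nucleus and repress the Arntl and Clock pair, whereas the Rev-erb proteins repress Arntl itself through ROR elements. DBP and TEF belong to the PAR bZIP family and act on D-box sequences. In skeletal muscle and tendon the loop is known to time metabolic and matrix genes, and Per1 also responds to glucocorticoids and to signals that raise cAMP.

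The DNA near the starts of 5 members is shown because the results below turn on them. The windows come from RefSeq on GRCm38.p6, cover 250 bases before to 50 bases after an annotated start, and are written on the strand of the gene. Capitals mark matches, on either strand, to 4 short motifs: the E-box CACGTG, the D-box TTANGTAA, the ROR element core TNGGTCA and the cAMP response element TGACGTCA. The letters used for the ROR element core leave the base before GGTCA open, so a match to these ROR letters need not be a ROR element. No window of a member held letters shared by 2 motifs. Per1 was read at chr11:69098699-69098998 (first of its 2 windows), Per3 at chr4:151044616-151044915, Arntl at chr7:113207261-113207560 (second of its 2 windows, which overlap), Nr1d1 at chr11:98775328-98775627 and Dbp at chr7:45704997-45705296.
Per1: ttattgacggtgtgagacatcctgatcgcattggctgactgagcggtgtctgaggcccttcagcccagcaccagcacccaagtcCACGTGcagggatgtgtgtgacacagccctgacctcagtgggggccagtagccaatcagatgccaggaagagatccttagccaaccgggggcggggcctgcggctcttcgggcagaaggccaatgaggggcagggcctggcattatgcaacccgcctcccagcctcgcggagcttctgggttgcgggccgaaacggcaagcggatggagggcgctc
Per3: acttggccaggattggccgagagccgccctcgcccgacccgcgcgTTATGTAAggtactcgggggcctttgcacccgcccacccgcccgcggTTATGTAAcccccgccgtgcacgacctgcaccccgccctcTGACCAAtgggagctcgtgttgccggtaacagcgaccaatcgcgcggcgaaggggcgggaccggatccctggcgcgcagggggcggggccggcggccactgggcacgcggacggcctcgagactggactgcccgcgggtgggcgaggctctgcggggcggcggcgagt
Arntl: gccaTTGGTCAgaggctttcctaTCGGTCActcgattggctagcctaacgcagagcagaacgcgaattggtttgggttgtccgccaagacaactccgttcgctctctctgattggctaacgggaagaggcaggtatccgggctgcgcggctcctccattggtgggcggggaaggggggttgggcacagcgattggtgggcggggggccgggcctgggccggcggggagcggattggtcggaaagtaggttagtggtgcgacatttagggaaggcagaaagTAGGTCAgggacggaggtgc
Nr1d1: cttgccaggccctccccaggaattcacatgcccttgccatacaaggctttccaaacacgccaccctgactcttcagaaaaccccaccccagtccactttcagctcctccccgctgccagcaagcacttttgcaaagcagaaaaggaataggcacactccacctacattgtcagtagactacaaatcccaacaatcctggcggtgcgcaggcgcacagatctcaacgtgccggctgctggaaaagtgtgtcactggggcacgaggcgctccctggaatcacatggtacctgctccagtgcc
Dbp: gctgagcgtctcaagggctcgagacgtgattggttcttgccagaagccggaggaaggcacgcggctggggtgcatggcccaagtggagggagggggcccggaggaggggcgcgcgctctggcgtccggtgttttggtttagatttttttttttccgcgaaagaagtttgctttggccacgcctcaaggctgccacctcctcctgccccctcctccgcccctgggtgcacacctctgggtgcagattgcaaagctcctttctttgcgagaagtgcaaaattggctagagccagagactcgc

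The window of Per1 held an E-box whose first base lies 166 bases before the start. Cry1, the cryptochrome repressor, held an E-box at −60, and both windows of Tef held one, at −127 and −138 of their own starts. Per3 held a pair of D-boxes, at −205 and −158, and a match to the ROR letters on the opposite strand at −118. The Arntl window printed above held 3 matches to the ROR letters, TTGGTCA at −246, TCGGTCA at −227 and TAGGTCA at 31, of which the first 2 also lie in its other window. Tef carried a match to the ROR letters on the opposite strand at −219 of its second window. An E-box was found in 7.15% of all 32851 windows of this length, a D-box in 2.32%, a match to the ROR letters in 11% and a cAMP response element in 1.79%. Windows were present for 9 of the 10 members, and Per2 is named only. The windows of Nr1d1, Nr1d2, Dbp and Clock and the second window of Per1 held none of these letters, which says nothing about sites elsewhere in those genes.

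Values are counts of unique molecular identifiers (UMIs), summed over the cells of a class and given per 1000000 UMIs of that class (CPM), with exact 95% Poisson intervals. Ratios are log2 of the Sod1KO CPM over the WT CPM, with exact 95% conditional binomial intervals, and all intervals cover counting error only. CPM is not scaled to transcript length, so levels are compared for 1 gene at a time. After filtering, 4557 WT GFP+, 5925 Sod1KO GFP+, 1638 WT GFP- and 5143 Sod1KO GFP- cells were left, with 20020302 to 89595609 UMIs per library, fewest in WT GFP-. Clusters were formed without the clock genes, and 24 of 37 took a class name from 5 to 11 of their markers, ending in "-like". The share of cells left without a name was 12.2% to 16.2% in the GFP+ libraries but, in GFP-, 55.6% for WT and 32.2% for Sod1KO. Pairs of libraries shared between 1 and 13 cell barcodes. For Sod1 itself the log2 ratio was 0.11 (interval 0.06 to 0.15) between the GFP+ libraries and −0.13 (interval −0.20 to −0.07) between the GFP- ones, so its counts do not separate the genotypes. The sources name no deleted exons, and 3' tags that lie outside a deletion check nothing, so every direction below is that of a library as labelled. No source used here gives the hour of harvest, which sets the level of clock genes in a tissue. With 1 pool per genotype, hour, preparation and genotype cannot be told apart.

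Clock gene levels differed between cell classes. Dbp and Nr1d1 were highest in tenocyte-like cells and lowest in macrophage-like cells, whereas Per1 was highest in myelinating Schwann-like cells and lowest in tenocyte-like cells. Over the 8 classes with at least 50 cells in both GFP+ libraries, 6 of the 10 members had the same class on top in the WT and the Sod1KO pool (Per1, Per2, Dbp, Nr1d1, Clock and Cry1), and 7 had the same class at the bottom. Unnamed clusters stand outside these orders, and some of them reached or passed the level of the top class. The plot of levels by class shows each gene in each library.

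**Figure D1:**
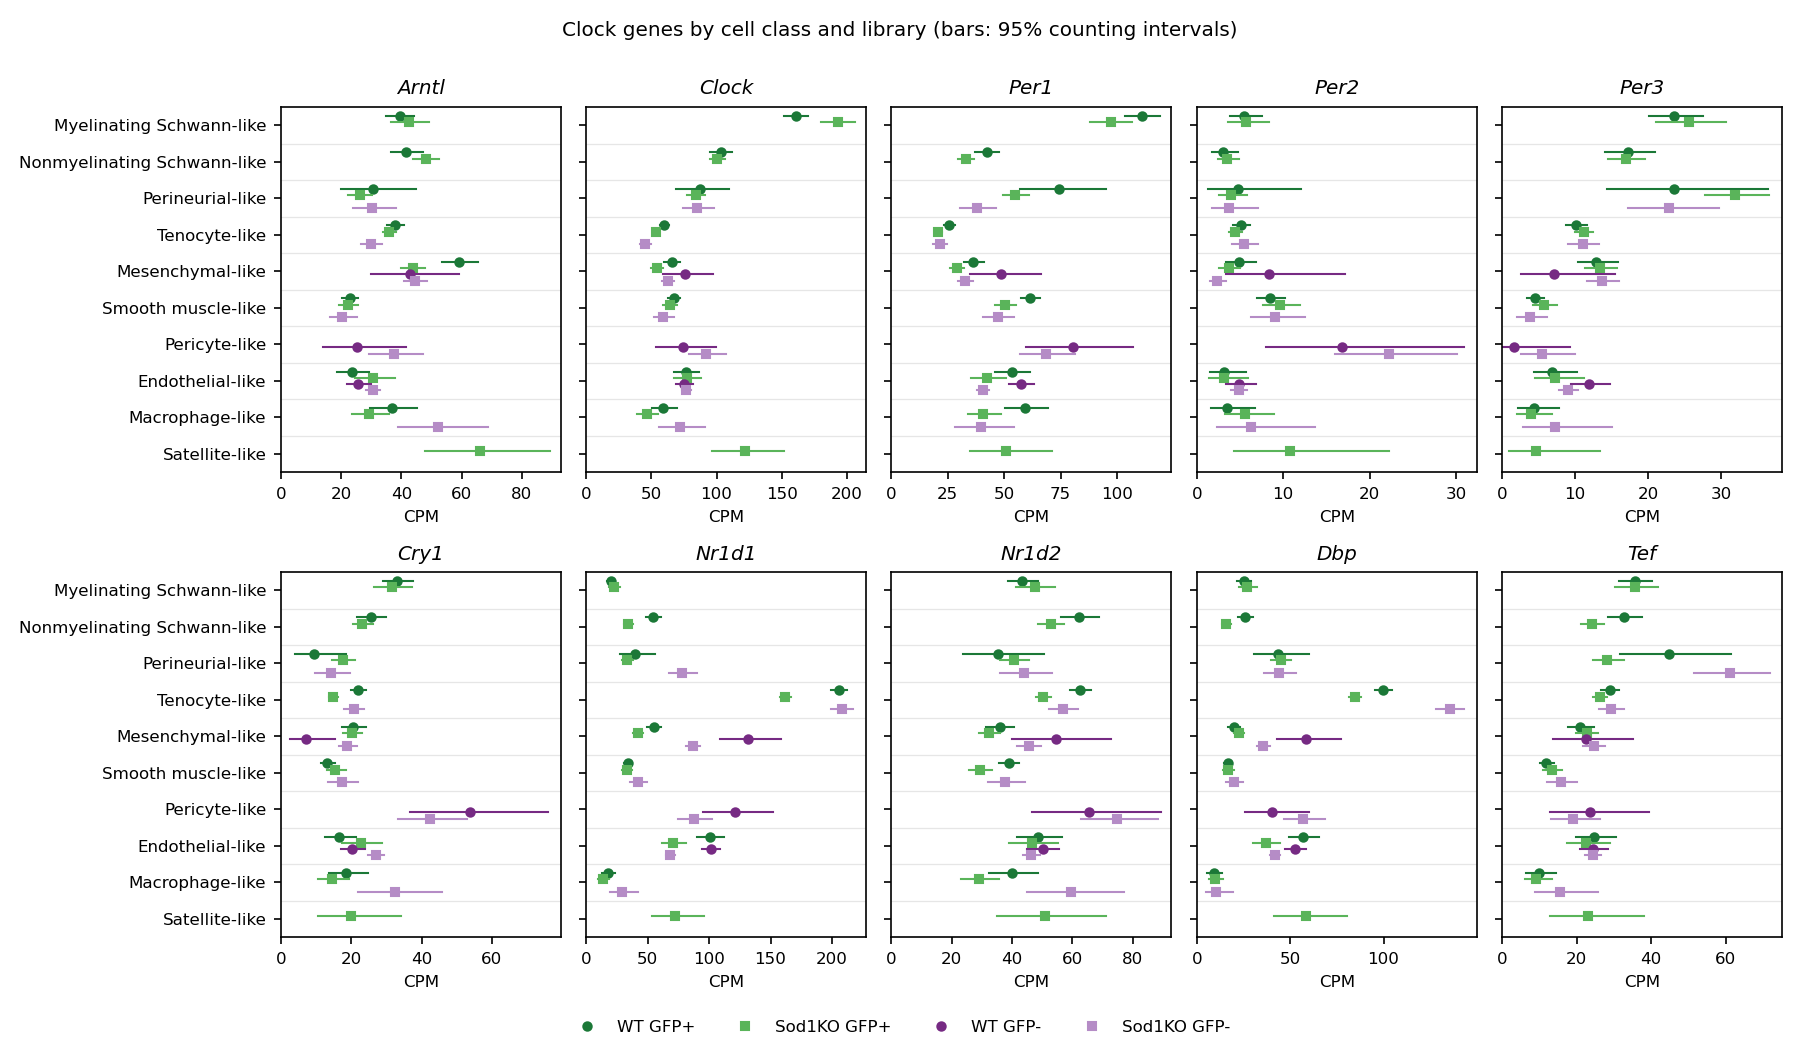
CPM of each clock gene (x axis, linear and starting at 0) in each cell class with at least 50 cells (y axis), with circles for WT, squares for Sod1KO, green for GFP+ and purple for GFP-, and horizontal bars for exact 95% Poisson intervals. Nr1d1 and Dbp stand out in tenocyte-like cells at up to 208 and 136 CPM, Clock and Per1 in myelinating Schwann-like cells at up to 193 and 111 CPM.

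Among the activators, Clock was highest in myelinating Schwann-like cells, at 161 CPM (151 to 170) in WT GFP+ and 193 CPM (180 to 206) in Sod1KO GFP+. In WT GFP+ nonmyelinating Schwann-like cells followed at 103 CPM, in Sod1KO GFP+ satellite-like cells at 122 CPM and nonmyelinating Schwann-like cells at 101 CPM, and macrophage-like cells were lowest at 59.3 and 46.7 CPM. The gap between the top class and the next lay outside the counting error in both libraries, while in WT GFP+ no other neighbours in the order differed beyond it. Myelinating Schwann-like cells were also shallow, with a median of 6238 UMIs per cell in WT GFP+ against 29342 in tenocyte-like cells, and a part of depth in this order was not tested.

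Arntl, the partner of Clock, led in other classes. In WT GFP+ it ranged from 22.8 CPM in smooth muscle-like to 59.3 CPM in mesenchymal-like cells, the only neighbours that differed being mesenchymal-like and nonmyelinating Schwann-like cells (41.6 CPM). In Sod1KO GFP+ the order at the top was satellite-like (66.2), nonmyelinating Schwann-like (48.1), mesenchymal-like (43.8) and myelinating Schwann-like cells (42.6 CPM), and none of these neighbours differed beyond counting error. In WT GFP+, 269 of the 403 Arntl UMIs of mesenchymal-like cells came from cluster 21, whose leading genes included Pi16, Ptgs2 and Smpd3. There Arntl reached 148 CPM (131 to 167) in WT GFP+, 111 CPM (96.0 to 128) in Sod1KO GFP+ and 69.5 CPM (58.1 to 82.5) in Sod1KO GFP-. The cluster was chosen after its values were seen, and its 3 libraries differ among themselves by more than counting error. Nr1d1, the repressor of Arntl, had 29.2, 18.6 and 56.2 CPM there in the same order of libraries, beside 55.0, 41.9 and 86.7 CPM in all mesenchymal-like cells.

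Among the repressors, Per1 was highest, by named class, in myelinating Schwann-like cells at 111 CPM (103 to 119) in WT GFP+ and 97.1 CPM (88.2 to 107) in Sod1KO GFP+. It was lowest in tenocyte-like cells, at 25.7 CPM in WT GFP+, 20.7 CPM in Sod1KO GFP+ and 21.4 CPM in Sod1KO GFP-. The span from lowest to highest class was 4.32-fold (3.86 to 4.84) in WT GFP+ and 4.69-fold (4.14 to 5.31) in Sod1KO GFP+. Between these ends, perineurial-like, smooth muscle-like, macrophage-like and endothelial-like cells of WT GFP+ (74.4, 61.5, 59.3 and 53.2 CPM) formed a run in which neighbours did not differ beyond counting error, and endothelial-like cells differed from the next class, nonmyelinating Schwann-like cells at 42.3 CPM. In Sod1KO GFP-, where Schwann-like cells were too few to count, pericyte-like cells were the highest class at 68.3 CPM and differed from smooth muscle-like cells at 47.2 CPM. Outside the named classes, the unnamed cluster 12 had 109 CPM (101 to 118) of Per1 in WT GFP+. The unnamed cluster 10 had 105 CPM (88.1 to 124) in Sod1KO GFP+.

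Per2 was sparse, with 401, 446, 138 and 573 UMIs in WT GFP+, Sod1KO GFP+, WT GFP- and Sod1KO GFP-. Its highest levels were in pericyte-like cells of the GFP- sort, at 16.8 CPM (8.06 to 30.9) in WT and 22.2 CPM (16.0 to 30.2) in Sod1KO. In GFP+, smooth muscle-like cells, the other mural class, had 8.45 CPM in WT and 9.60 CPM in Sod1KO, above the next class with 5.49 and 5.66 CPM beyond counting error. In every other class of WT GFP+ Per2 lay between 3.00 and 5.49 CPM, and those neighbours did not differ. Satellite-like cells, counted only in Sod1KO GFP+, had 10.8 CPM on 7 UMIs.

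Per3 followed another order. Myelinating Schwann-like and perineurial-like cells led in WT GFP+ with 23.6 CPM each, perineurial-like cells led in Sod1KO GFP+ with 31.9 CPM and in Sod1KO GFP- with 22.9 CPM, and macrophage-like and smooth muscle-like cells were lowest in WT GFP+, at 4.35 and 4.52 CPM. Neighbours in the WT GFP+ order did not differ beyond counting error, whereas the ends differed 5.44-fold (2.96 to 11.1). The unnamed cluster 12, outside this order, had 26.2 CPM (22.2 to 30.8) of Per3 in WT GFP+ and 29.1 CPM (23.3 to 35.8) in Sod1KO GFP+.

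Cry1 was highest in myelinating Schwann-like cells of both GFP+ libraries, at 33.1 CPM (29.0 to 37.6) in WT and 31.5 CPM (26.5 to 37.2) in Sod1KO, above nonmyelinating Schwann-like cells at 25.6 and 23.2 CPM. In the GFP- sort pericyte-like cells led, at 53.8 CPM (36.8 to 75.9) in WT and 42.3 CPM (33.4 to 52.8) in Sod1KO, the latter within counting error of macrophage-like cells at 32.3 CPM. Perineurial-like cells were lowest in WT GFP+ at 9.44 CPM, a value that rests on 8 UMIs.

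Nr1d1, a Rev-erb receptor, differed widely between classes. Tenocyte-like cells had 206 CPM (199 to 212) in WT GFP+, 162 CPM (157 to 166) in Sod1KO GFP+ and 208 CPM (199 to 217) in Sod1KO GFP-. Macrophage-like cells had 17.8, 13.5 and 29.2 CPM in the same libraries, so that the span was 11.6-fold (8.62 to 15.9), 12.0-fold (8.84 to 16.8) and 7.12-fold (4.91 to 10.7). In all 3 libraries tenocyte-like cells differed from the next class beyond counting error. Endothelial-like cells had the second level in WT GFP+, at 101 CPM, and myelinating Schwann-like cells were near the bottom at 20.3 CPM and 22.6 CPM in WT and Sod1KO GFP+.

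Nr1d2, the other Rev-erb receptor, spanned 35.4 CPM in perineurial-like to 62.6 CPM in tenocyte-like cells of WT GFP+, which is 1.77-fold (1.23 to 2.63), and 28.9 CPM in macrophage-like to 52.9 CPM in nonmyelinating Schwann-like cells of Sod1KO GFP+. Only 1 pair of neighbours in the WT GFP+ order, nonmyelinating Schwann-like at 62.3 CPM over endothelial-like at 48.6 CPM, differed beyond counting error.

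Of the output factors, Dbp had the same highest and lowest classes as Nr1d1. Tenocyte-like cells had 99.8 CPM (95.4 to 104) in WT GFP+, 84.9 CPM (81.7 to 88.2) in Sod1KO GFP+ and 136 CPM (128 to 143) in Sod1KO GFP-. Macrophage-like cells had 9.09, 9.87 and 10.4 CPM, which made the span 11.0-fold (7.29 to 17.4), 8.61-fold (6.01 to 12.8) and 12.99-fold (7.04 to 27.1). Tenocyte-like cells stood apart from the next class in each of these libraries. Most tenocyte-like cells belonged to cluster 0, which was led by Wif1, Angptl7, Chad and Fmod, of which Wif1 also stood on the list for endoneurial fibroblasts. In WT GFP+, Nr1d1 had 240 CPM and Dbp 122 CPM in cluster 0 but 95.8 CPM and 26.7 CPM in cluster 14, which was led by Col22a1 and Thbs4.

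Tef, a PAR bZIP factor like Dbp, was highest in perineurial-like cells of WT GFP+ at 44.8 CPM (31.7 to 61.6) and of Sod1KO GFP- at 61.2 CPM (51.7 to 71.9). In Sod1KO GFP+ it was highest in myelinating Schwann-like cells at 35.8 CPM, with perineurial-like cells at 28.3 CPM. Macrophage-like cells were the lowest class in these 3 libraries, at 9.88, 15.7 and 9.21 CPM in the order WT GFP+, Sod1KO GFP- and Sod1KO GFP+. The unnamed cluster 12 stood above the top class in point value in both GFP+ libraries, with 50.9 CPM (45.2 to 57.1) of Tef in WT and 43.1 CPM (36.1 to 51.1) in Sod1KO.

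Across the 27 class-by-library groups with at least 50 cells, Pearson's r of log2(CPM + 1) was computed for each pair of members, as a description, since groups share libraries, mice and depth. Dbp and Nr1d1 were most alike at 0.87, followed by Per3 and Tef at 0.73, Per1 and Clock at 0.67 and Nr1d1 and Nr1d2 at 0.59. Dbp and Tef also reached 0.59. Arntl and Nr1d1 gave −0.03, Per1 and Nr1d1 −0.47 and Per2 and Per3 −0.59. Among the 3 genes with an E-box in their windows, r was 0.24 for Per1 and Cry1, 0.02 for Per1 and Tef and 0.03 for Cry1 and Tef.

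**Figure D2:**
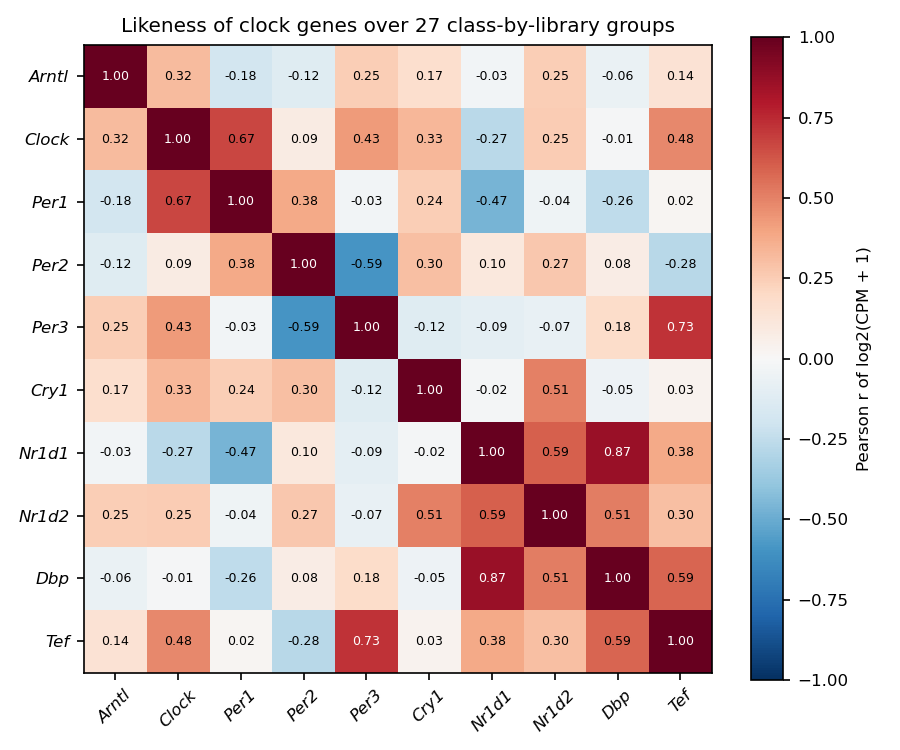
Pearson's r of log2(CPM + 1) between clock genes (rows and columns) over 27 class-by-library groups, with red for positive and blue for negative values and the number in each cell. Dbp and Nr1d1 share the highest value, 0.87, and Per2 and Per3 the lowest, −0.59.

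Among the 11618 genes with a mean of at least 5 CPM over these groups, Nr1d1 ranked second in likeness to Dbp, beside Kat6b (0.87), Pkd2 (0.84), Il17rd (0.81) and Ghr (0.81), the growth hormone receptor. The genes most like Per1 were 1810026B05Rik (0.89), Akap7 (0.87), Ptges3 (0.83), H3f3b (0.83) and Clk2 (0.83). Those most like Arntl included Coq8b (0.79), Clcn5 (0.77), Pign (0.76) and Styx (0.75). These lists depended on the cells that entered them, and of the 15 genes 3 remained when predicted doublets were kept and 4 under a stricter cell filter.

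Between the pools, over all cells, 0 of the 10 members differed by 1.5-fold or more in either sort. Among all genes with at least 50 UMIs in the 2 libraries, 8.05% were higher and 6.77% lower in Sod1KO by that limit in GFP+, and 20.2% higher and 6.87% lower in GFP-. All 10 members passed the count filter in both sorts. Their median log2 ratio was −0.15 in GFP+ and 0.02 in GFP-, beside −0.003 and 0.03 over all genes tested. The interval lay off 0 for 7 members in GFP+ and 4 in GFP-, which counts UMIs and not animals. The share of all genes with such an interval is not given here, so these counts are no result about clock genes.

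**Figure D3:**
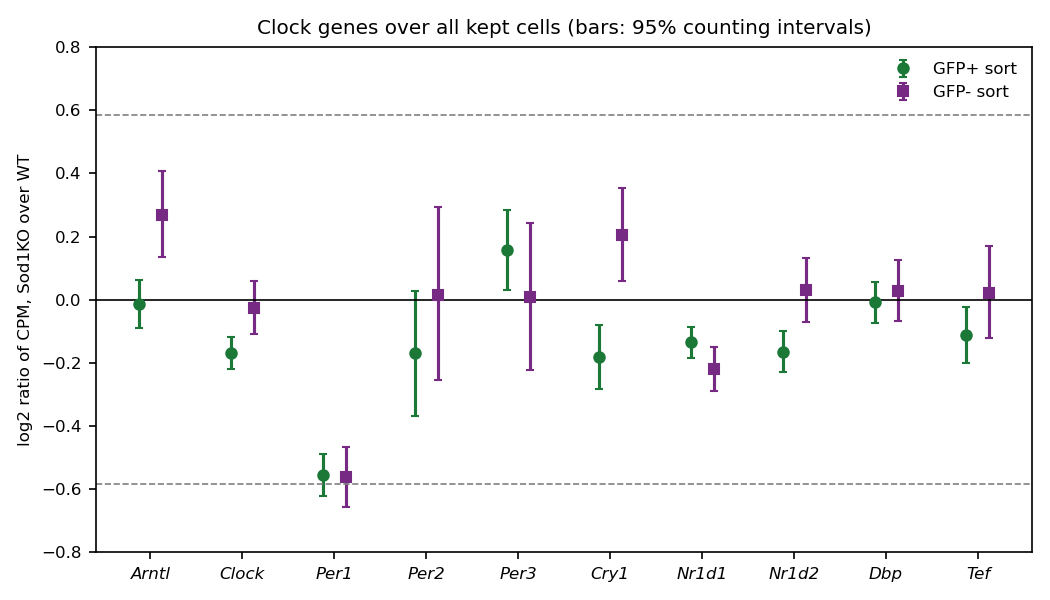
Log2 ratio of CPM, Sod1KO over WT (y axis), of each clock gene over all kept cells (x axis), with circles for GFP+, squares for GFP-, bars for exact 95% conditional binomial intervals and dashed lines at 1.5-fold. Per1 lies near −0.55 in both sorts, and the other members lie between −0.22 and 0.27.

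Per1 had the lowest ratio of the members in both sorts. It had 56.1 CPM (4016 UMIs) in WT GFP+, 38.2 CPM (3421 UMIs) in Sod1KO GFP+, 61.6 CPM (1234 UMIs) in WT GFP- and 41.8 CPM (3434 UMIs) in Sod1KO GFP-. Both WT libraries thus stood above both Sod1KO libraries, with log2 ratios of −0.55 (−0.62 to −0.49) in GFP+ and −0.56 (−0.66 to −0.47) in GFP-. The sorts of a genotype came from the same mice and are not replicates. Of all genes tested, 7.34% had a lower ratio in GFP+ and 7.38% in GFP-. These ratios sat just inside the limit of 1.5-fold, a log2 value of 0.58, and passed it at −0.62 and −0.59 when the mean of per-cell CPM replaced summed UMIs. With each class weighted equally the ratio was −0.44 in GFP- and −0.35 in GFP+. Myelinating Schwann-like cells, the class with the highest Per1, numbered 1077 in the WT and 658 in the Sod1KO library of that sort.

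Per1 was also lower in Sod1KO in each of the 11 comparisons within a class, 8 in GFP+ and 3 in GFP-, from −0.19 in myelinating Schwann-like cells to −0.58 in mesenchymal-like cells of GFP-. Its interval lay below 0 in 9 of them, the exceptions being endothelial-like cells of GFP+ at −0.33 (−0.67 to 0.01) and pericyte-like cells at −0.24 (−0.73 to 0.27). In all 11 comparisons 2.41% of the 8062 genes that could be read in each were lower. Of the 9 members that could be read in each, Per1 was the only one. These comparisons share 1 pool per genotype. Within single clusters Per1 was lower in 13 of 14 in GFP+ and 4 of 4 in GFP-, the exception standing at 0.05.

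Most genes of 2 other lists also had ratios below 0. Of 6 glucocorticoid-responsive genes, Klf9 was lower at −1.06 in GFP+ and −0.92 in GFP-, Sgk1 at −0.80 and −0.88, and Tsc22d3 at −0.62 and −0.56. Klf9, Sgk1 and Tsc22d3 were lower in all 11 comparisons within a class. Over all 6 genes, 43 of 48 ratios within classes were below 0 in GFP+ and 12 of 18 in GFP-. Fkbp5 was −0.33 in GFP+ but 0.69 in GFP-, Zbtb16 was −0.21 and 0.25, and Errfi1 was −0.57 and −0.35. Of 8 immediate early genes, which respond to stress within minutes, 7 had a ratio below 0 in each sort, with medians of −0.22 and −0.37, and Nr4a1 was lowest in GFP+ at −0.75. Of 4 heat shock genes, 3 had a ratio above 0 in GFP+ and 1 in GFP-. Over all genes tested the median log2 ratio was −0.003 in GFP+ and 0.03 in GFP-. The share of all genes with a ratio below 0 is not given here, so these counts are no result about the lists. The part of these genes' signals in the Per1 difference was not tested.

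Nr1d1 was lower in Sod1KO in 10 of 11 class comparisons, with a median of −0.40. These classes share 1 pool per genotype, and the share of all genes lower in at least 10 is not given here. Over all cells Nr1d1 had 89.95 CPM in WT GFP+, 81.9 CPM in Sod1KO GFP+, 106 CPM in WT GFP- and 91.2 CPM in Sod1KO GFP-. Its log2 ratios were −0.14 (−0.18 to −0.09) and −0.22 (−0.29 to −0.15). In tenocyte-like cells, where it was highest, the ratio was −0.35 (−0.41 to −0.29). Their cluster 0 gave −0.40 (−0.46 to −0.33) and their cluster 14 gave 0.10 (−0.08 to 0.27). Endothelial-like cells had 101 CPM in both WT libraries, 70.7 CPM in Sod1KO GFP+ and 68.6 CPM in Sod1KO GFP-, and their ratios were −0.51 (−0.77 to −0.26) for the GFP+ pair and −0.56 (−0.69 to −0.43) for the GFP- pair. The exception was myelinating Schwann-like cells at 0.16 (−0.22 to 0.54). Within single clusters Nr1d1 was lower in 9 of 15 in GFP+ and 5 of 6 in GFP-.

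**Figure D4:**
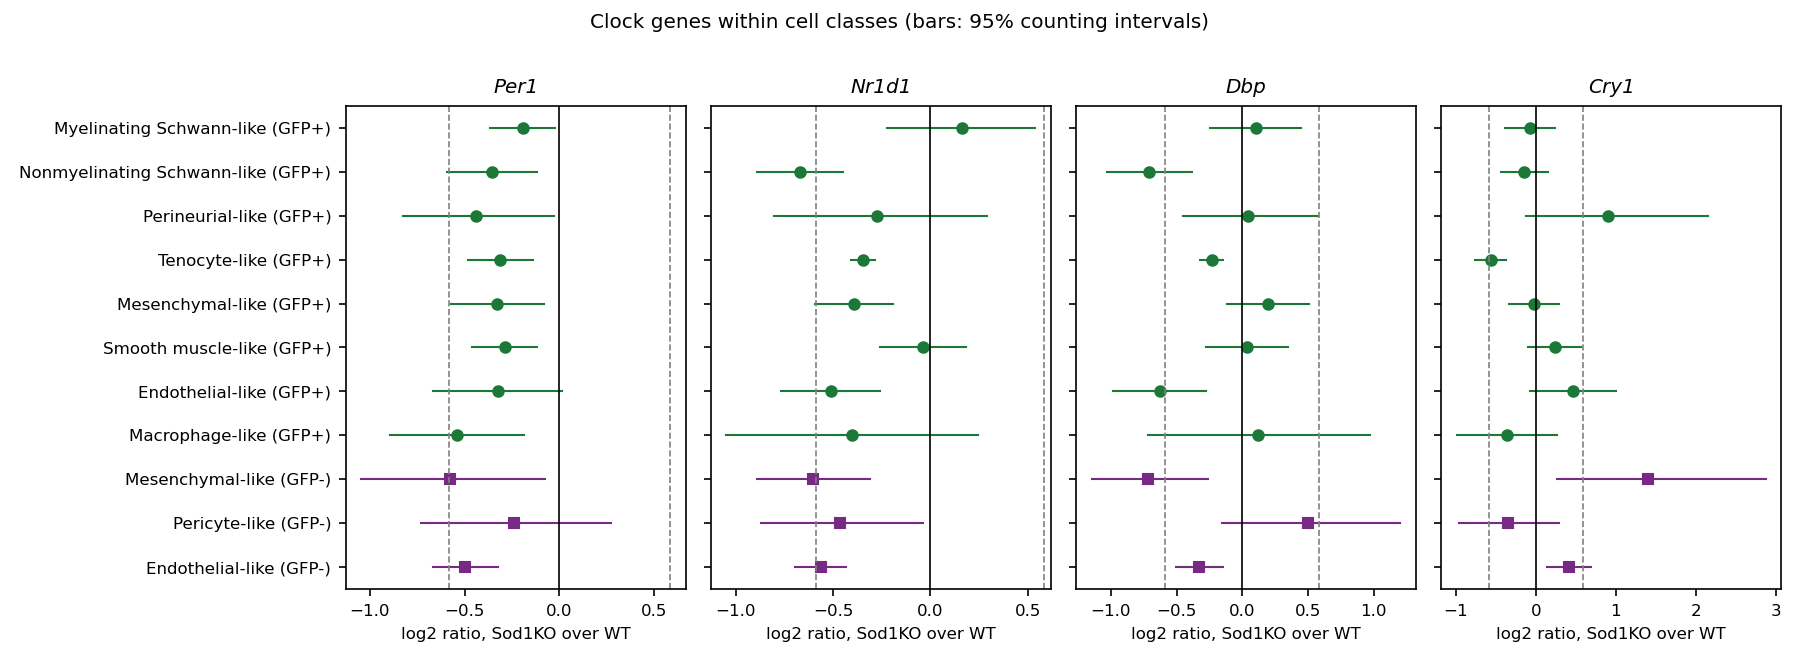
Log2 ratio of CPM, Sod1KO over WT (x axes, each with its own range), of Per1, Nr1d1, Dbp and Cry1 within each cell class with at least 50 cells in both libraries (y axis), with green circles for GFP+, purple squares for GFP-, bars for exact 95% conditional binomial intervals and dashed lines at 1.5-fold. Per1 lies below 0 in all 11 comparisons, from −0.19 to −0.58, and Nr1d1 in 10, whereas Dbp and Cry1 lie on both sides of 0.

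Dbp did not differ beyond counting error over all cells, with 47.5, 47.2, 53.9 and 55.0 CPM in WT GFP+, Sod1KO GFP+, WT GFP- and Sod1KO GFP-, and log2 ratios of −0.01 (−0.07 to 0.06) and 0.03 (−0.07 to 0.13). Within classes it went both ways. It was lower in Sod1KO in tenocyte-like cells at −0.23 (−0.32 to −0.15), in endothelial-like cells at −0.63 (−0.98 to −0.28) in GFP+ and −0.33 (−0.50 to −0.15) in GFP-, in nonmyelinating Schwann-like cells at −0.71 (−1.03 to −0.38) and in mesenchymal-like cells of GFP- at −0.72 (−1.15 to −0.26). The other classes of GFP+ gave 0.04 to 0.19, and pericyte-like cells of GFP- gave 0.50, all with intervals that include 0. Tenocyte-like cells, with the highest Dbp, were 605 in WT and 1279 in Sod1KO GFP+.

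The nonmyelinating Schwann-like ratios of Dbp and Nr1d1 were also read within clusters. Most of these cells were in cluster 11 in WT (304 of 382) and in cluster 7 in Sod1KO (630 of 878). Dbp was 28.0 CPM in WT and 24.5 CPM in Sod1KO in cluster 11, and 7.64 CPM (4 UMIs) and 13.9 CPM in cluster 7, so that neither cluster gave the class ratio of −0.71. Nr1d1, at −0.67 (−0.89 to −0.45) in the class, was −0.32 (−0.65 to 0.003) in cluster 11 and −0.44 (−1.06 to 0.24) in cluster 7. Its ratio was thus below 0 in both clusters. The part of the cluster mix in the class ratios of either gene was not tested.

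Clock had 82.2, 73.1, 72.5 and 71.3 CPM in WT GFP+, Sod1KO GFP+, WT GFP- and Sod1KO GFP-, with log2 ratios of −0.17 (−0.22 to −0.12) and −0.03 (−0.11 to 0.06). Within myelinating Schwann-like cells it was higher in Sod1KO, at 0.27 (0.14 to 0.39), the only class in which its interval lay above 0. The interval of Clock lay below 0 in mesenchymal-like cells of GFP+ at −0.28 (−0.46 to −0.10). It also lay below 0 in tenocyte-like cells at −0.16 (−0.27 to −0.05) and macrophage-like cells at −0.34 (−0.69 to −0.004) of that sort. Arntl had 36.0, 35.6, 26.9 and 32.4 CPM, with ratios of −0.01 (−0.09 to 0.06) in GFP+ and 0.27 (0.14 to 0.41) in GFP-. Within classes, its interval lay below 0 only in mesenchymal-like cells of GFP+ at −0.44 (−0.63 to −0.24) and above 0 only in endothelial-like cells of GFP- at 0.24 (0.01 to 0.49). Cluster 21 with its high Arntl made up 66 of 597 mesenchymal-like cells in WT and 84 of 999 in Sod1KO GFP+, and within it the ratio was −0.41 (−0.69 to −0.14). The mesenchymal-like clusters 4, 5 and 15 of GFP+ gave Arntl ratios above 0, all with intervals that include 0. These were 0.18 (−0.22 to 0.58), 0.48 (−0.18 to 1.19) and 0.12 (−0.56 to 0.85).

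Cry1 had 21.7, 19.1, 22.7 and 26.2 CPM in the same order of libraries, and log2 ratios of −0.18 (−0.28 to −0.08) and 0.21 (0.06 to 0.35). It was lower in Sod1KO in tenocyte-like cells at −0.56 (−0.76 to −0.37) and higher in endothelial-like cells of GFP- at 0.41 (0.14 to 0.69). Of the tenocyte-like clusters, cluster 0 gave −0.74 (−0.96 to −0.52) and cluster 14 gave 0.23 (−0.21 to 0.68). Endothelial-like cells of GFP+ gave 0.46 (−0.07 to 1.00). Its 0.90 in perineurial-like cells and 1.41 in mesenchymal-like cells of GFP- were past 1.5-fold but rested on 8 and 6 WT UMIs.

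The other members differed little over all cells. Nr1d2 had 49.3, 44.0, 49.8 and 50.9 CPM, with ratios of −0.16 (−0.23 to −0.10) and 0.03 (−0.07 to 0.13), and Tef had 26.4, 24.4, 24.0 and 24.3 CPM, with ratios of −0.11 (−0.20 to −0.02) and 0.02 (−0.12 to 0.17). Per2 had 5.60, 4.98, 6.89 and 6.97 CPM, with ratios of −0.17 (−0.37 to 0.03) and 0.02 (−0.26 to 0.29), whose width allows no reading of direction. Per3, alone among the members, had an interval above 0 in GFP+, at 0.16 (0.03 to 0.29), from 12.2 to 13.6 CPM, and 9.59 and 9.64 CPM in GFP- with 0.01 (−0.22 to 0.24).

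Within classes, 80 member-by-class ratios of GFP+ had at least 20 UMIs, of which 2 (2.5%) were higher and 4 (5%) lower by 1.5-fold or more. Over all gene-by-class ratios the shares were 9.76% and 7.71%. The higher ones were Cry1 in perineurial-like and Per2 in macrophage-like cells, and the lower ones Dbp in endothelial-like and nonmyelinating Schwann-like, Nr1d1 in nonmyelinating Schwann-like and Tef in perineurial-like cells (−0.67, −1.18 to −0.12). Most perineurial-like cells were in cluster 20 in WT (42 of 65) and cluster 18 in Sod1KO (274 of 370). In GFP-, 29 of 30 ratios had enough UMIs, of which 2 (6.90%) were higher and 3 (10.3%) lower, against 15.8% and 10.6% of gene-by-class ratios. All 5 came from mesenchymal-like cells, where WT GFP- had 68 cells, 25 of them in a cluster found in that library alone. Without such clusters this class fell under 50 cells and 0 ratios of GFP- were past the limit.

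The wider clock was read in 22 other genes of the loop, its kinases, ubiquitin ligases and outputs, and all 22 passed the count filter in both sorts. In GFP+, 0 were higher and 1 was lower by 1.5-fold, and in GFP- 6 were higher and 0 lower. The shares over all genes were 8.05% higher and 6.77% lower in GFP+, and 20.2% and 6.87% in GFP-, so that 6 of 22 is near the background of that sort and no result about clock genes as a group. None was past the limit in both sorts. The gene that was lower, named after its value was seen, was Usp2, a clock-controlled ubiquitin protease, at 55.6 CPM in WT GFP+ and 32.7 CPM in Sod1KO GFP+ (−0.77, −0.83 to −0.70), but 0.35 (0.20 to 0.49) in GFP-. Smooth muscle-like cells, the GFP+ class with the most Usp2, at 163 CPM in WT and 119 CPM in Sod1KO, had a ratio of −0.45 (−0.56 to −0.34).

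Rora and Rorb encode nuclear receptors that activate Arntl at the elements that the Rev-erb proteins repress. In GFP-, Rora was 1.00 (0.96 to 1.05) and Rorb 1.18 (0.67 to 1.72), and in GFP+ they were 0.33 and −0.33. Within mesenchymal-like cells of GFP-, which held 30 of the 35 WT and 302 of the 325 Sod1KO UMIs of Rorb, its ratio was −0.48 (−1.02 to 0.12), and these cells were 68 in WT and 843 in Sod1KO. Rora had 422, 529, 221 and 443 CPM in WT GFP+, Sod1KO GFP+, WT GFP- and Sod1KO GFP-. It was higher in Sod1KO in endothelial-like cells of both sorts, at 0.66 (0.49 to 0.84) and 0.91 (0.80 to 1.02), in pericyte-like cells at 0.55 (0.38 to 0.71), in mesenchymal-like cells of GFP- at 0.67 (0.52 to 0.82), and in perineurial-like and macrophage-like cells of GFP+ at 0.80 (0.57 to 1.04) and 0.91 (0.54 to 1.28). In myelinating Schwann-like cells it was −0.03 (−0.17 to 0.10), and in nonmyelinating Schwann-like cells −0.07 (−0.12 to −0.02). Npas2, Arntl2 and Bhlhe41 were also past the limit in GFP-, named after their values were seen. In that sort 55.6% of WT and 32.2% of Sod1KO cells were unnamed, and the part of the cell mix in these ratios was not tested.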

How the data were processed

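Droplet-based 3' single-cell RNA libraries were read from the matrices of whole-number UMI counts that the authors deposited. Per the labels, they were made with Cell Ranger 7.1.0 on mm10 (GRCm38), and the file headers give the same version. The methods text of the paper gives another version, and names a second build beside GRCm38. Positions and promoter windows are those of RefSeq on GRCm38.p6. Cell Ranger counts reads by strand, which matters for Nr1d1, whose 3' end overlaps Thra. Ambient RNA was still in the counts.

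Cells with more than 200 genes and under 10% mitochondrial UMIs were kept, and predicted doublets (0.8% per 1000 barcodes) removed with simulated doublets. Counts of the 2000 most variable genes, without 32 clock genes, gave 30 principal components, a graph of 20 neighbours and Leiden clusters at resolution 1 (Python 3.11.15, scikit-learn 1.9.0, igraph 0.11.9, leidenalg 0.10.2). A class name needed at least 3 markers and 30% of 1 of 18 lists, each above 20 CPM and 2 times the mean of other clusters. No rival list could have 50% or 6 markers. Rivals allowed were pericyte and smooth muscle for each other, endoneurial fibroblast for mesenchymal, and dendritic and neutrophil for macrophage. Clusters led by bone genes stayed unnamed, as did those with more leading genes on another list, such as cluster 12. Clusters under 0.33 of the median depth also stayed unnamed if none of their 10 leading genes was on the list. These limits were set after looking at the clusters. A rebuilt class may differ from the study's.

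Ratios needed 50 UMIs over both libraries (20 within a class) and 50 cells per class. A count of 0 was set to 3 UMIs. Intervals were tested on simulated Poisson counts, the error they assume, which cannot show how they hold in these data. With 1 library per group there was no test, and being past 1.5-fold is a limit of size. Named genes were the 10 members, other clock genes past 1.5-fold in both sorts or with 1 of the 3 largest ratios in either sort, and the 5 genes most like Dbp, Per1 and Arntl by r, and 2 genes that this rule names are not reported here. The members and lists were chosen with earlier results of these data known. Alternatives were another scaling, Gm42418 left out of totals, a limit of 2-fold, no count filter, a stricter cell filter (over 500 genes, under 5%), doublets kept, 5% free RNA subtracted, per-cell means, equal class weights, resolution 0.5, clusters over 80% from 1 library left out and, added after seeing the data, single clusters.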

Additional observations from a re-analysis of the deposited data

Results flagged for a closer look

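Cry1 had a log2 ratio of Sod1KO over WT of −0.18 over all cells of GFP+ and of 0.21 over all cells of GFP-, and it was picked out because the counting intervals of the 2 sorts lay on opposite sides of 0. The difference between the sorts was not tested, since each ratio compares 1 library with 1 library. With each class weighted equally the ratios were 0.05 and 0.49. Equal weights let in a perineurial-like ratio of 0.90 in GFP+ on 8 WT UMIs. In GFP- they let in a mesenchymal-like ratio of 1.41 on 6 WT UMIs. The part of the perineurial-like ratio in the change of sign in GFP+ was not tested.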

How the results depend on the processing

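No paired analysis was possible because each group had 1 library. The count of members past 1.5-fold over all cells stayed at 0 except for Per1, which made 1 lower under per-cell means in GFP+ and GFP- and 1 lower under the stricter cell filter in GFP-, and Per3, which made 1 higher in GFP- when each class had equal weight, which lets in a pericyte-like ratio on 1 WT UMI. Of member-by-class ratios in GFP+ (2.5% higher and 5% lower), 0% and 0% were past 2-fold. The share higher was 6.45% with doublets kept, 1.37% at resolution 0.5, 1.43% without clusters mostly from 1 library and 4.44% in single clusters, and the share lower 8.75% under per-cell means, 2.86% without clusters mostly from 1 library and 10.4% in single clusters. In GFP- (6.90% higher and 10.3% lower of 29 ratios) median-of-ratios scaling and leaving out Gm42418 both gave 10.3% and 6.90%, the 2-fold limit 3.45% and 3.45%, the stricter cell filter 10.7% and 25%, doublets kept 18.2% and 6.06%, and leaving out clusters mostly from 1 library 0% and 0%. Per-cell means gave 20.7% higher, resolution 0.5 25% lower and single clusters 6.52% lower in GFP-. Of the other clock genes, 0 were lower in GFP+ past 2-fold, 0 under the stricter cell filter and 2 under per-cell means, and 3 were higher in GFP- past 2-fold. Of the 15 genes most like Dbp, Per1 and Arntl, 4 remained under the stricter cell filter, 3 with doublets kept and 5 at resolution 0.5. The causes were not tested, except that fewer classes and the stricter limit leave fewer ratios by construction. Per1 was lower in every class of GFP- under each alternative, and in 88.9% to 100% of classes of GFP+, the lowest share with doublets kept. In WT GFP+ the class of highest CPM stood for 8 to 10 of the 10 members. Over all cells, subtracting free RNA leaves ratios as they are by construction. Depth limits Per2 and Per3 most, and WT GFP-, with 1638 cells, limits every ratio of its sort.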

Other observations

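Some clock genes stood apart in single clusters that the classes hide, which were chosen after their values were seen. In Sod1KO GFP-, the endothelial-like cluster 30, led by the lymphatic markers Ccl21a, Mmrn1, Prox1 and Lyve1, had 66.5 CPM (55.4 to 79.3) of Cry1, against 26.96 CPM in all endothelial-like cells of that library, and 31.9 CPM of Nr1d1, against 68.6 CPM. The endothelial-like cluster 9, led by Gkn3, Gja5 and Sema3g, which mark arteries, had 134 CPM of Nr1d1 in WT GFP+, 135 CPM in WT GFP- and 97.6 CPM in Sod1KO GFP-. Per1 was 89.6 CPM in WT GFP- and 58.7 CPM in Sod1KO GFP- in the same cluster, a log2 ratio of −0.61 (−0.93 to −0.29).

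Dbp differed in sign between the tenocyte-like clusters 0 and 14 of GFP+. It had a log2 ratio of −0.38 (−0.47 to −0.29) in cluster 0 and of 1.07 (0.77 to 1.38) in cluster 14, with 26.7 CPM in WT and 56.1 CPM in Sod1KO. In cluster 14 Per3 had 4.92 CPM in WT and 14.3 CPM in Sod1KO, a ratio of 1.54 (0.85 to 2.29). Tef had 21.5 and 31.4 CPM there, a ratio of 0.54 (0.19 to 0.91), and Per1 29.3 and 28.5 CPM, a ratio of −0.04 (−0.37 to 0.29). Per1, Arntl and Clock had ratios below 0 in both clusters, but in cluster 14 all of their intervals included 0. Arntl was −0.04 (−0.28 to 0.20) and Clock −0.12 (−0.31 to 0.08) there. The interval of Arntl in cluster 0, at −0.06 (−0.23 to 0.11), also included 0. The difference between the clusters was not tested.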
